A study of Mus musculus with 6 samples.

Results

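Retinoic acid is the signalling form of vitamin A. Cells oxidize retinol to retinal, retinaldehyde dehydrogenases of the Aldh1a family convert retinal to retinoic acid, cellular binding proteins carry it, nuclear receptors of the RAR family (paired with an RXR partner) bind it on DNA, and Cyp26 enzymes break it down. The signal is used in the patterning of the pharyngeal arches and outflow vessels and is known for its presence in maturing smooth muscle of the ductus arteriosus (DA), the fetal artery that joins the pulmonary artery to the aorta. The 9 genes described here are *Aldh1a1*, *Aldh1a2*, and *Aldh1a3* for synthesis, *Crabp1* and *Crabp2* for binding, *Rara*, *Rarb*, and *Rarg* as receptors, and *Cyp26b1* for breakdown. They were taken by gene symbol, and all 9 were found among the 23997 genes of the table.

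The values came from bulk RNA-Seq of DA dissected from C57BL/6 embryos at E17.5, with 3 libraries from wild type embryos (WT) and 3 from embryos of genotype Prdm6f/f; SM22-Cre (KO). *Prdm6* encodes a histone methyltransferase of smooth muscle cells (SMCs), both floxed copies are targeted, and the *SM22-Cre* transgene expresses Cre-recombinase in SMCs. Whether the other cells of the vessel keep the gene was not tested here. The sources do not state whether the WT embryos carried Cre. The question was how loss of *Prdm6* in SMCs changes the transcripts of the fetal DA.

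The unit was FPKM, by definition the fragments mapped to a gene per kilobase of transcript, scaled to the number of mapped fragments. Levels can be compared between genes, while comparisons between libraries rest on a scaling that the sources do not give. The upper quartile was 10.4 to 10.8 FPKM per library, whereas the summed FPKM ran from 412183 (WT 1) to 818503 (KO 2). Total depth is unknown. From the steps between low values, the scaling divisor of each library was 0.927 to 1.19 times that of WT 1. This equals relative depth only if the values were scaled to mapped fragments alone. Between 8338 and 11886 genes were listed at 0 per library, with the most in WT 2. *Prdm6* was at 41.7, 48.4, and 19.8 FPKM in WT 0, 1, and 2 and at 48.6, 27.1, and 15.4 FPKM in KO 0, 1, and 2, which overlap. The excised part of *Prdm6* is not named in the sources, so this value does not test the labels, and every direction below rests on them. KO 0 held both *Xist* (81.0 FPKM) and the Y-linked *Ddx3y* (26.4 FPKM), whereas each other library had 1 of the 2 above 1 FPKM. WT 1 and KO 2 had the highest heart muscle transcripts.

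None of the 9 retinoic acid genes passed the test between the groups. In limma on log2(FPKM + 0.1), run on the 12955 genes that averaged 1 FPKM or more, 0 of the 9 had an adjusted p under 0.05, against 0.00772% of all genes tested. At an unadjusted p under 0.05 there was 1 of the 9, *Rarb*, against 8.28% of all genes. The groups did not overlap for *Rarb*, where KO lay above WT (8.21% of all genes in this direction), and for *Rara* and *Cyp26b1*, where KO lay below WT (7.84%). These 3 of 9 stand beside 16.1% of all genes in either direction. The median log2 fold change was -0.50 over the 9 genes and 0.072 over all genes tested, and it was negative for 6 of the 9. All 9 genes passed the filter on mean FPKM, but *Cyp26b1* passed it only through WT (its KO mean was 0.778 FPKM), so its lack of overlap is a description and supports nothing about the 9. The libraries are not described as single embryos, so p-values measure the spread between libraries.

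**Figure D1:**
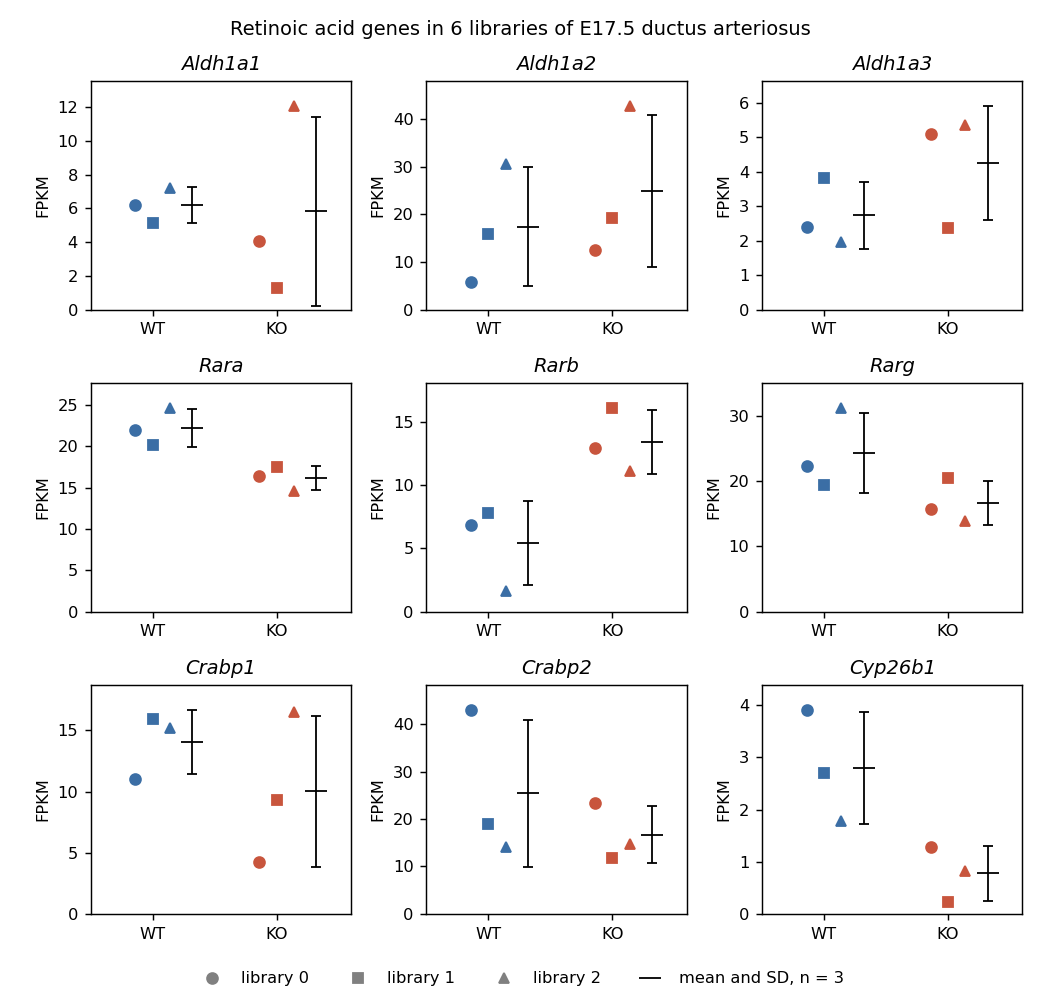
FPKM of the 9 retinoic acid genes in the 3 WT (blue) and 3 KO (orange-red) libraries, 1 panel per gene on a linear axis from 0, with the marker shape giving the library number and the black bar the mean and SD. *Rarb* in KO sits between 11.1 and 16.1 FPKM, above all WT libraries, and *Rara* and *Cyp26b1* in KO sit below all WT libraries.

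The 3 synthesis enzymes did not separate the groups. *Aldh1a2*, the main retinoic acid enzyme of embryonic mesenchyme and of mesothelium, is found at 71215789 to 71296243 of chromosome 9 (GRCm38). It was at 5.71, 15.9, and 30.6 FPKM in WT 0, 1, and 2 and 12.6, 19.1, and 42.8 FPKM in KO 0, 1, and 2. The libraries numbered 2 were the highest of each group, and the spread within a group was wider than the distance between the means. The log2 fold change was 0.63 (95% interval -0.90 to 2.15, adjusted p = 0.773 in limma), and it became -0.016 without WT 0.

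*Aldh1a1* (chromosome 19 from 20492715 to 20643465) makes retinoic acid in other tissues of the embryo, such as the eye. It was at 6.18, 5.12, and 7.24 FPKM in WT and at 4.06, 1.30, and 12.1 FPKM in KO. The KO libraries thus included both the lowest and the highest of the 6. The log2 fold change was -0.58 (95% interval -2.33 to 1.16), and it became 0.20 without KO 1. *Aldh1a3* (chromosome 7 from 66390890 to 66427517), the third enzyme with this function, was at 2.41, 3.83, and 1.96 FPKM in WT and at 5.08, 2.36, and 5.35 FPKM in KO, with a log2 fold change of 0.59 (95% interval -0.72 to 1.90). KO 0 and KO 2 lay above every WT library and KO 1 lay among them.

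By FPKM, which is per length, *Aldh1a2* was the highest of the 3 in 5 of the 6 libraries, and *Aldh1a1* was the highest in WT 0. *Aldh1a2* made up 60.3% ± 18.7 (SD, n = 3) of the summed FPKM of the family in WT and 71.0% ± 13.0 (SD, n = 3) in KO (two-sided exact permutation test, p = 0.5). This difference of 10.7 percentage points was 0.554 without WT 0, 4.23 without KO 1, 17.2 without KO 0, 19.0 without WT 2, and 5.01 when taken from the summed FPKM of each group. The share of *Aldh1a1* was 27.4% ± 13.8 (SD, n = 3) in WT and 14.8% ± 7.93 (SD, n = 3) in KO (exact permutation, p = 0.3), and the difference of -12.5 points was -4.58 without WT 0, -7.96 without KO 1, and -6.83 from the summed FPKM. The share of *Aldh1a3* was 12.4% ± 6.51 (SD, n = 3) and 14.2% ± 7.97 (SD, n = 3) (exact permutation, p = 0.9). The sum of the 3 was 26.3 ± 12.8 FPKM (SD, n = 3) in WT and 34.9 ± 22.0 FPKM (SD, n = 3) in KO (exact permutation, p = 0.7).

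The cellular binding proteins overlapped as well. *Crabp1* (chromosome 9 from 54764748 to 54773110), a carrier that is found in neural crest mesenchyme and is linked to clearance of the ligand, was at 11.0, 15.9, and 15.2 FPKM in WT and at 4.24, 9.34, and 16.5 FPKM in KO. KO 0 and KO 1 lay below every WT library and KO 2 lay above them. The log2 fold change was -0.67 (95% interval -1.79 to 0.46, adjusted p = 0.702 in limma), and it became -1.13 without KO 2 (unadjusted p = 0.0382 in limma). *Crabp2* (chromosome 3 from 87948666 to 87953376), which hands retinoic acid to the receptors and is itself induced by it, was at 43.0, 19.0, and 14.1 FPKM in WT and at 23.4, 11.8, and 14.8 FPKM in KO. The WT value was set by WT 0, and the log2 fold change of -0.50 (95% interval -1.53 to 0.54) became -0.033 without it. *Crabp2* was the higher of the pair in 4 of the 6 libraries.

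Of the 3 receptors, *Rarb* and *Rara* did not overlap between the groups, beside 16.1% of all genes tested in either direction. None of the 3 had an adjusted p under 0.05 in limma. *Rarb* (chromosome 14 from 16430839 to 16819156, minus strand) is the receptor gene that is itself switched on by retinoic acid. It was at 6.87, 7.80, and 1.67 FPKM in WT 0, 1, and 2 and at 12.9, 16.1, and 11.1 FPKM in KO 0, 1, and 2. Every library labelled KO lay above every library labelled WT, and WT 2 was the lowest of all. The means were 5.45 ± 3.30 (SD, n = 3) and 13.4 ± 2.51 (SD, n = 3) FPKM, a ratio of 2.46 (exact permutation on the log2 scale, two-sided, p = 0.1, which is the lowest value that 3 against 3 allows). On the log2 scale the difference, KO minus WT, was 1.53 with a standard error of 0.58 (95% interval 0.18 to 2.89, unadjusted p = 0.0315 and adjusted p = 0.588 in limma).

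The size of the *Rarb* difference depended on WT 2. Without that library it was 0.85 (log2, unadjusted p = 0.0185 and adjusted p = 0.542 in limma), and without any other single library it lay between 1.39 and 1.92. Without KO 0, the library with both *Xist* and Y-linked transcripts, it was 1.55. The unadjusted p in limma was 0.0713 without KO 0, 0.0928 without KO 1, and 0.0512 without KO 2, so that *Rarb* did not pass 0.05 when any 1 KO library was left out. It also did not pass with all 6 libraries under the other variance models in limma, where its unadjusted p was 0.0532 with no trend and 0.0961 with no moderation. Without WT 1 and KO 2, the libraries with the most heart muscle transcripts, it was 2.05.

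The known response of *Rarb* to its ligand runs through an element at its own promoter. The classical retinoic acid response element is a direct repeat of a 6-base half-site with 5 bases between the repeats, where a half-site was taken here as AGGTCA or AGTTCA or GGGTCA or GGTTCA on either strand. It was searched for, after the expression values were known, in the 250 bases before and 50 bases after the RefSeq start sites on GRCm38.p6. Of 32851 such windows in the genome, 32 held the repeat (0.0974%). Of the 9 genes, 7 had at least 1 window, 12 windows in all, and only the window of *Rarb* held it. Among the other 56 retinoid genes only *Cyp26a1*, a retinoic acid breakdown enzyme, did. Both are shown so that the shared element can be read, 5′ to 3′ on the minus strand, with the 2 half-sites in capitals.
Rarb, chr14:16575507-16575535: gggaagGGTTCAccgaaAGTTCActcgca
Cyp26a1, chr19:37697770-37697798: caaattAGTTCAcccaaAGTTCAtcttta

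The element of *Rarb* spans 16575513 to 16575529, from base -53 to base -37 before the RefSeq start site. In GENCODE vM21 it falls in an exon of 2 of the 7 *Rarb* transcripts, and in an intron of 2 others. A match describes the letters in the window and says nothing of binding in these samples. *Cyp26a1* was listed at 0 in 3 of the 6 libraries and did not exceed 0.895 FPKM in the others, so it was below the filter. Repeats of the same half-sites spaced by 1 or 2 bases stood in 0.222% and 0.268% of the windows and in none of those of the 9 genes.

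The 3′ end of *Rarb* overlaps *Top2b*, a DNA topoisomerase gene on the other strand, from 16430839 to 16435462. Exons of both genes share 1793 bases there, 34.1% of the exonic bases of *Rarb*, and the sources do not say whether fragments were counted by strand, so reads of the pair may be mixed. *Top2b* was at 40.6, 45.04, and 55.9 FPKM in WT and at 41.8, 46.8, and 54.1 FPKM in KO, a log2 fold change of 0.017 (adjusted p = 0.981 in limma). Its groups overlapped. Noncoding genes or pseudogenes also overlap *Rarb*, *Aldh1a1*, *Aldh1a2*, and *Rara*, and were not separated here.

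*Rara* (chromosome 11 from 98927818 to 98974942), the widely expressed receptor, was at 21.9, 20.1, and 24.7 FPKM in WT and at 16.4, 17.52, and 14.6 FPKM in KO. The groups did not overlap and the spread within each was small. Their difference was -0.46 on the log2 scale, with a standard error of 0.20 (95% interval -0.93 to 0.018, unadjusted p = 0.0574 and adjusted p = 0.609 in limma), and it lay between -0.53 and -0.38 with each library left out.

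*Rarg* (chromosome 15 from 102234938 to 102257517), a receptor of mesenchyme and skin, was at 22.3, 19.4, and 31.3 FPKM in WT and at 15.7, 20.4, and 13.8 FPKM in KO. The groups overlapped through WT 1 and KO 1 alone. Here the log2 fold change was -0.53 (95% interval -1.15 to 0.080, adjusted p = 0.624 in limma), and it lay between -0.69 and -0.34 with each library left out.

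The make-up of the RAR family was also taken within each library, a measure that does not depend on scaling between libraries. It is built from the same receptor values as above, so it adds no separate support to them. For single genes, 16.1% of all genes tested did not overlap between the groups in either direction. That share was not taken for the make-up of other gene families. *Rarb* made up 13.4%, 16.5%, and 2.90% of the summed RAR FPKM in WT and 28.7%, 29.8%, and 28.2% in KO. The KO libraries lay within 2 percentage points of each other and above all WT libraries. The mean share was 10.9% ± 7.13 (SD, n = 3) in WT and 28.9% ± 0.843 (SD, n = 3) in KO (exact permutation, two-sided, p = 0.1, the lowest value the design allows). The share of *Rara* was 42.8% ± 0.198 (SD, n = 3) and 35.3% ± 2.48 (SD, n = 3), and that of *Rarg* was 46.3% ± 7.03 (SD, n = 3) and 35.9% ± 1.67 (SD, n = 3) (exact permutation, p = 0.1 for each). The 3 shares add up to a whole, so they are not separate results.

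The sum of the 3 receptors was 52.0 ± 5.23 FPKM (SD, n = 3) in WT and 46.2 ± 7.30 FPKM (SD, n = 3) in KO, which overlap (exact permutation, p = 0.4). In a pair of ratios chosen after the values were seen, the log2 ratio of *Rarb* to *Rara* was -2.31 ± 1.37 (SD, n = 3) in WT and -0.286 ± 0.145 (SD, n = 3) in KO (exact permutation, p = 0.1), without overlap. The log2 ratio of *Rarg* to *Rara* was 0.10 ± 0.21 (SD, n = 3) and 0.025 ± 0.17 (SD, n = 3), which overlap (exact permutation, p = 0.5). *Rara* and *Rarg* were thus close in level in every library, each being the highest of the family in 3 of the 6, and *Rarb* was the highest in 0.

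**Figure D2:**
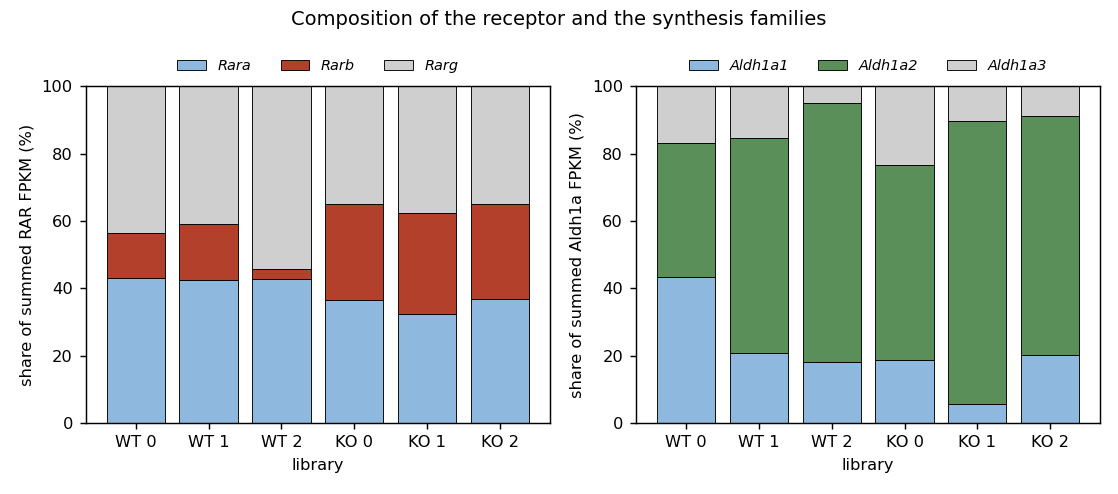
Share of each gene in the summed FPKM of the RAR family (left) and of the Aldh1a family (right), as stacked bars from 0 to the whole for each of the 6 libraries. The *Rarb* share is 28.2% to 29.8% in KO and 2.90% to 16.5% in WT, while the *Aldh1a2* share overlaps between the groups.

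*Cyp26b1* (chromosome 6 from 84571414 to 84593908), the enzyme that oxidizes retinoic acid for removal and so limits the signal in mesenchyme, was the lowest of the 9 genes by mean FPKM. It was at 3.91, 2.70, and 1.77 FPKM in WT and at 1.28, 0.233, and 0.824 FPKM in KO. Every library labelled KO lay below every library labelled WT, and KO 1 was the lowest. The means were 2.79 ± 1.07 (SD, n = 3) and 0.778 ± 0.523 (SD, n = 3) FPKM (two-sided exact permutation test, p = 0.1). KO differed from WT by -1.88 on the log2 scale, with a standard error of 0.91 (95% interval -3.98 to 0.23, unadjusted p = 0.0733 and adjusted p = 0.624 in limma). At this low level its size moved with the processing, from -1.10 with a pseudocount of 1 to -2.97 with quantile normalization, and to -1.29 without KO 1.

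Breakdown relative to synthesis was compared within libraries as the log2 ratio of *Cyp26b1* to the summed Aldh1a FPKM. It was -1.87, -3.20, and -4.49 in WT and -4.09, -6.61, and -6.19 in KO. KO 0 lay between WT 1 and WT 2, so the groups overlapped. The mean difference, KO minus WT, was -2.45 (two-sided exact permutation test, p = 0.2). This ratio and the 6 shares of the RAR and Aldh1a genes were the 7 measures of composition that were planned.

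**Figure D3:**
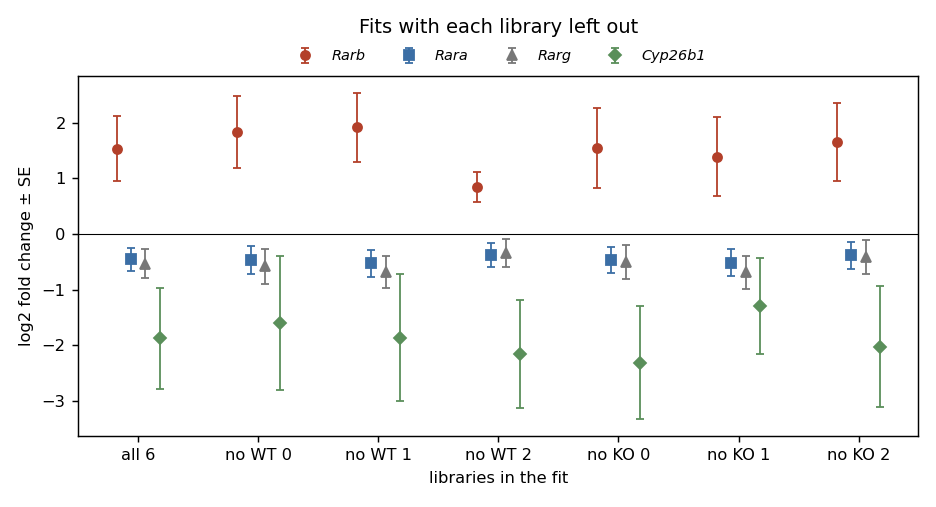
Log2 fold change (KO minus WT) with its standard error from limma for *Rarb*, *Rara*, *Rarg*, and *Cyp26b1*, with all 6 libraries and with each library left out. *Rarb* stays above 0, from 0.85 without WT 2 to 1.92 without WT 1, and the other genes stay below 0.

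By mean FPKM over the 6 libraries the order was *Aldh1a2* (21.1), *Crabp2* (21.0), *Rarg* (20.5), *Rara* (19.2), *Crabp1* (12.04), *Rarb* (9.42), *Aldh1a1* (6.00), *Aldh1a3* (3.50), and *Cyp26b1* (1.79). No neighbours in this order kept it in all 6 libraries. *Rara* exceeded *Crabp1* in 5 and *Aldh1a3* exceeded *Cyp26b1* in 5, whereas each of the first 3 exceeded the next in 3. *Crabp1* exceeded *Rarb* in 3 of 3 WT libraries and in 1 of 3 KO libraries.

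The genes whose values followed *Rarb* most closely were *Zfp329*, *Lamtor3*, *Foxo4*, *Sec22c*, and *Ccp110*, with a mean absolute difference of 0.11 to 0.15 between the centred log2 values over the 6 libraries. Each of these 5 also had its lowest value in WT 2, as *Rarb* did. They were chosen for their likeness to *Rarb* over these same libraries, so this shared pattern follows from the choice. *Foxo4*, a forkhead transcription factor, was at 6.11, 8.66, and 1.46 FPKM in WT and at 11.7, 15.3, and 12.04 FPKM in KO.

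Other genes of the pathway were taken from 6 lists. Of 56 such genes, 40 passed the filter and 0 had an adjusted p under 0.05. An unadjusted p under 0.05 was found for 3 of the 40, against 8.28% of all genes tested. Of these, 2 were higher and 1 was lower in KO. The groups did not overlap for 6 of the 40, 3 in each direction, against 16.1% of all genes tested in either direction. The median log2 fold change was 0.055, close to the 0.072 of all genes tested.

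Retinol uptake and storage had 3 of 7 genes past the filter. *Rbp4*, the retinol carrier of plasma, was listed at 0 in 3 of the 6 libraries and *Ttr*, its plasma partner, in 2. Of the 16 genes for the interconversion of retinol and retinal, 9 passed the filter. An unadjusted p under 0.05 was found for 0 of these 9, against 8.28% of all genes tested. *Dhrs3*, which returns retinal to retinol and is induced by retinoic acid, was at 69.8, 53.5, and 22.2 FPKM in WT and at 34.3, 25.9, and 28.2 FPKM in KO. WT 0 and WT 1 lay above every KO library and WT 2 below them. *Adh5*, an alcohol dehydrogenase, differed by -0.58 on the log2 scale (95% interval -1.24 to 0.086, adjusted p = 0.624 in limma). *Adh1*, an alcohol dehydrogenase that oxidizes retinol, ranged from 0 to 13.7 FPKM in WT and from 7.46 to 12.8 FPKM in KO. Neither *Cyp26a1* nor *Cyp26c1* passed the filter.

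Among the RXR partners and the alternative route through *Fabp5* and *Ppard*, 5 of 5 genes were tested. *Rxrb* was at 8.72, 7.57, and 6.49 FPKM in WT and at 11.4, 10.1, and 10.6 FPKM in KO, without overlap, a log2 fold change of 0.50 (95% interval -0.14 to 1.14, adjusted p = 0.65 in limma). For *Rxra*, the main partner, the log2 fold change was 0.084 (95% interval -0.51 to 0.67). *Rxrg*, the least abundant partner, ranged from 0 to 3.10 FPKM in WT and from 0.039 to 4.62 FPKM in KO. *Fabp5*, a fatty acid binding protein that can carry retinoic acid, was the most abundant at 159 FPKM in WT and 155 FPKM in KO.

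All 9 listed coregulators were tested. The corepressor *Ncor1* differed by -0.083 on the log2 scale (standard error 0.18), the coactivator *Crebbp* by 0.028 (standard error 0.16), and the ligand-dependent corepressor *Nrip1* by 0.22 (standard error 0.21).

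Genes known to respond to retinoic acid did not move one way. Of 17 listed, 14 were tested and 2 had an unadjusted p under 0.05, both higher in KO. This stands beside 8.28% of all genes tested in either direction. *Tgm2*, a transglutaminase, was at 39.9, 39.2, and 43.5 FPKM in WT and at 57.0, 53.5, and 56.2 FPKM in KO, a log2 fold change of 0.44 (95% interval 0.090 to 0.79, unadjusted p = 0.0203, adjusted p = 0.552 in limma). *Rarres1*, a retinoic acid receptor responder, was at 0.829, 1.32, and 0 FPKM in WT and at 6.44, 3.01, and 2.76 FPKM in KO (unadjusted p = 0.0399 in limma). Both were without overlap, but *Rarres1* passed the filter only through KO (its WT mean was 0.716 FPKM), so its difference is a description. In the other direction, *Hoxb5*, chosen after its values were seen, also did not overlap. It was at 3.85, 5.52, and 5.38 FPKM in WT and at 1.58, 1.90, and 3.04 FPKM in KO. *Rarres2*, the most abundant of the list, differed by -0.32 on the log2 scale (standard error 0.20).

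**Figure D4:**
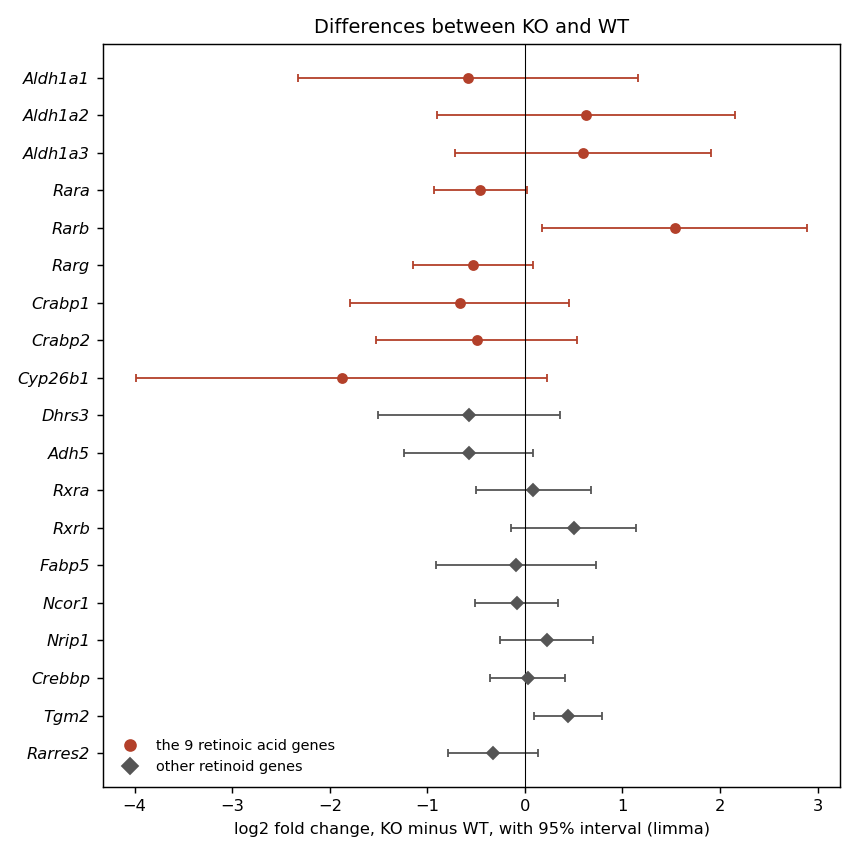
Log2 fold change (KO minus WT) with its 95% interval from limma for the 9 retinoic acid genes (circles) and for other retinoid genes (diamonds). The diamonds are the genes reported here under the naming rule given below, with a standard error under 1. *Hoxb5*, chosen outside that rule, is not drawn (-1.18, 95% interval -2.37 to 0.016). The intervals of *Rarb* and *Tgm2* are above 0, both before adjustment, and those of the other 8 retinoic acid genes include 0.

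The libraries also differed in the transcripts of cell types that a dissected DA can hold, and in bulk tissue fewer cells of a type and less RNA per cell cannot be told apart. Smooth muscle markers were present in all 6 libraries, as the tissue label implies. Their summed FPKM over 7 genes was 2437 to 5597 in WT and 858 to 2356 in KO, and 0 of the 7 had a higher mean in KO. Schwann cell markers summed to 8.51 to 10.4 FPKM in WT and 22.6 to 106 FPKM in KO, with 6 of 6 genes higher in mean. Neuron markers summed to 7.48 to 23.1 FPKM in WT and 40.6 to 56.2 FPKM in KO, with 7 of 7 genes higher in mean. These 3 lists parted the groups in the same way as *Rarb*, *Rara*, and *Cyp26b1*, and their part in those differences was not tested.

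Mesothelium markers (8 genes) summed to 69.6, 91.9, and 241 FPKM in WT 0, 1, and 2 and to 86.8, 179, and 218 FPKM in KO 0, 1, and 2. Within each group this is the same order of libraries as for *Aldh1a2*. Single genes of the mesothelium list, such as *Upk1b* and *Krt18*, did not all keep it. The fibroblast sums kept the same order too. They were 1558, 2442, and 2972 FPKM in WT 0, 1, and 2 and 1224, 2443, and 2612 FPKM in KO 0, 1, and 2. The part of either list in the *Aldh1a2* values was not tested. The sums of fibroblast (1558 to 2972 FPKM in WT, 1224 to 2612 FPKM in KO), endothelium (235 to 327 and 268 to 434), erythroid (3819 to 7583 and 4284 to 24359), heart muscle (40.6 to 897 and 76.3 to 856), and macrophage markers (20.0 to 147 and 31.3 to 208) overlapped. Epithelium (1.76 to 3.68 and 2.11 to 9.89 FPKM), skeletal muscle (1.96 to 9.42 and 1.48 to 7.60), and brown fat markers (0.166 to 6.65 and 0 to 1.05) overlapped too. *Myod1* of skeletal muscle and *Ucp1* and *Plin1* of brown fat were listed at 0 in every library.

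**Figure D5:**
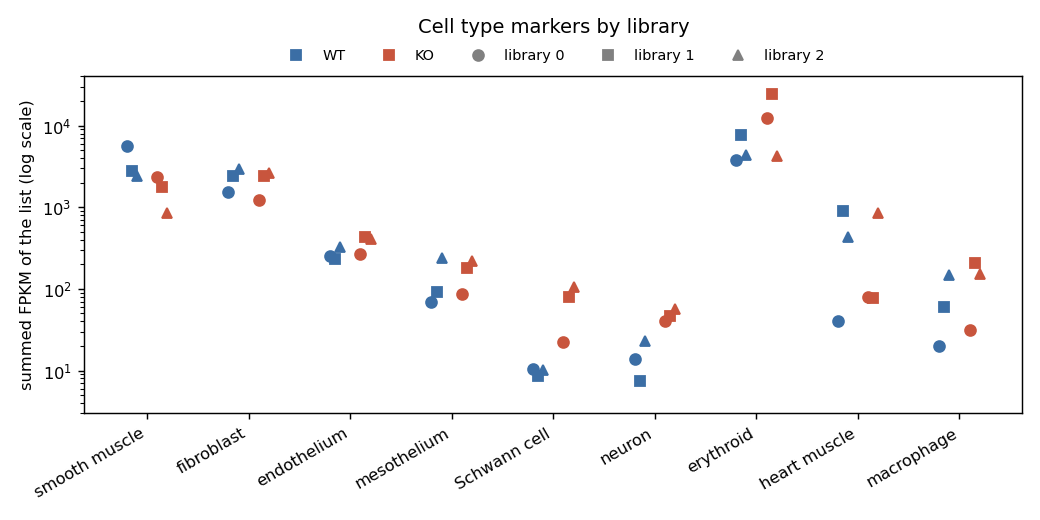
Summed FPKM (log scale) of cell type marker lists in the 3 WT (blue) and 3 KO (orange-red) libraries, with the marker shape giving the library number. Smooth muscle sums are lower in KO (858 to 2356) than in WT (2437 to 5597), Schwann cell and neuron sums are higher in KO, and the other lists overlap.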

How the data were processed

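RNA was extracted with the miRNeasy Micro Kit. After trimming, reads were mapped by the authors to mm10 (TopHat2), and Cufflinks and Cuffdiff gave the deposited FPKM, 1 column for each library. The versions, the gene annotation, and the scaling between libraries are not given in the sources used here. Groups and library numbers came from the sample titles.

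The 9 genes, the gene lists, and the tests were chosen with earlier results of these data known. Genes that averaged 1 FPKM or more were compared on log2(FPKM + 0.1) with limma 3.58.1 in R 4.3.3 (lmFit, eBayes with trend, two-sided, Benjamini-Hochberg over 12955 genes, threshold 0.05). Fold changes on this scale understate those of low genes. Cuffdiff needs the reads and was not repeated. The script was tested on simulated data. Single values were compared with two-sided exact permutation tests. All 9 genes are named. Of each other retinoid list, the 2 most abundant genes and the 2 with the lowest unadjusted p past the filter are named, or else the most abundant gene (*Cyp26c1*). Some genes that this rule takes are not reported here. *Cyp26a1* was added for its sequence. Positions and overlaps came from GENCODE vM21 on GRCm38 (the assembly of mm10), and promoter windows from RefSeq on GRCm38.p6. *Aldh1a3* and *Crabp2* had no window. Other settings tried were pseudocounts, filters, normalizations, variance models, a replicate block, and omission of each library.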

Additional observations from a re-analysis of the deposited data

How the results depend on the processing

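The standard error of a log2 fold change had a median of 0.41 over all genes tested, which limits what 3 libraries a group can show. The number of the 9 genes with an adjusted p under 0.05 was 0 in every alternative, and *Rarb*, *Rara*, *Rarg*, *Cyp26b1*, *Crabp1*, *Crabp2*, and *Aldh1a3* kept their direction in each alternative that tested them. *Cyp26b1* and *Aldh1a3* were not tested under the filter of 5 FPKM. The count with an unadjusted p under 0.05, 1, became 2 with a pseudocount of 0.01 and 2 with no filter, where *Rara* was added, and 2 with quantile normalization, where *Cyp26b1* was added. Over all genes tested it was 1026 of 12955, 1257 of 16953, and 1102 of 12955 under these settings. Over all genes it was 940 with no trend and 998 with no moderation, each of 12955. For the 9 genes these 2 settings are given next. The count among the 9 stayed at 1 with no trend and with no moderation, but the gene was then *Cyp26b1* (0.0240) and *Rara* (0.0162) in place of *Rarb* (0.0532 and 0.0961). It ranged from 0 to 1 with each library left out. Over all genes it then ran from 669 of 12884 (without KO 1) to 1291 of 12957 (without WT 1). The count without overlap, 3, lay between 3 and 5 on omission of 1 library, and was 6 when both WT 1 and KO 2 (most heart muscle transcripts) were omitted, which was added once the data had been seen. Smaller groups overlap less often, and the share of all genes without overlap was not taken under these omissions. The counts of 5 and 6 are therefore not read as results about the 9 genes. On omission of 1 library *Aldh1a2* ran from -0.016 (without WT 0) to 1.18, and *Aldh1a1* from -1.36 to 0.20 (without KO 1). The difference in the *Aldh1a3* share (1.81 percentage points, KO minus WT) ran from -2.77 to 4.47 on the same omissions, and was negative without WT 2 and without KO 0. The cause was not tested. The sources do not say whether the library numbers pair the samples. The correlations of same-numbered deviations were 0.12, -0.076, and -0.0088. Those of other numbers ran from -0.12 (WT 0 with KO 2) to 0.14 (WT 1 with KO 2), so these values do not settle it. With the replicate block, the log2 fold change of *Rarb* had an unadjusted p of 0.0159 and 0 of the 9 genes were called, against 0 without it.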
